A study of Mus musculus with 27 samples.

Results

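The regions described here are the largest stretches of closely spaced measured cytosines on the autosomes of C2C12 cells, mouse myoblasts of an established line that form multinucleated myotubes in low serum. Positions with a methylation level in every library were joined into runs wherever neighbours lay at most 100 bp apart, and autosomal runs of 100 or more positions were kept. This gave 1723 of 23602 runs (7.30%), called long runs below, with 235076 of 871894 positions (26.96%). The methylation level itself played no part in choosing them. DNA methylation was measured by reduced representation bisulfite sequencing. This method reads CpG-rich fragments released by a restriction enzyme that the labels write as MpsI. Bisulfite converts unmethylated cytosine, so a level stands for the share of methylated copies. All 27 libraries were from C2C12 cells that were differentiated in 2% horse serum and then shocked with 50% horse serum for 2 h, a treatment used to synchronise cellular clocks. Cells were taken at 12, 18, 24, 30, 36, 42, 48, 54 and 60 h after the shock, with 3 libraries at each of the 9 times. C2C12 is a single line, and unshocked cells were not analysed here. The labels do not tell whether replicates are separate cultures, so each p-value rests on a spread between libraries that may be technical. The deposited levels carry no read counts, so the depth behind each is unknown. Whether each level rests on its own position alone was not tested, so neighbouring positions may not be independent measurements.

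CpG islands are stretches of DNA that keep a high density of CpG dinucleotides, often at the starts of genes. In most mammalian cells they stay unmethylated, whereas CpGs elsewhere in the genome are usually methylated. Known exceptions include imprinted islands methylated on a single parental copy, islands of germ-line genes, and islands of developmental regulators in cell lines, where Polycomb proteins commonly bind the unmethylated form.

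Promoter sequences from RefSeq (assembly GRCm38.p6, which is the mm10 assembly) show what these runs look like at both ends of the range of levels. Each sequence runs from 250 bases before to 50 bases after a gene start, on the gene's strand, and CpGs measured in all 27 libraries are in capitals. The first 3 are the promoters with the highest mean levels among the 934 that lie wholly inside a long run. The other 3 start genes at some of the largest runs under 10%, and were picked after their values were seen.
4933428G20Rik, chr11:97500291-97500590, minus strand: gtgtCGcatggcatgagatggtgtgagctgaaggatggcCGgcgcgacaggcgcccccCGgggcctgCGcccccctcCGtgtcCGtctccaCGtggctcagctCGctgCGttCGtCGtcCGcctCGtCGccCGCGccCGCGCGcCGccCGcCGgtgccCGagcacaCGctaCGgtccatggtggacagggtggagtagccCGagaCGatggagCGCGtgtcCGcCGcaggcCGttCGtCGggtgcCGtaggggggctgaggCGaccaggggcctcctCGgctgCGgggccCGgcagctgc
Sox30, chr11:45980060-45980359, plus strand: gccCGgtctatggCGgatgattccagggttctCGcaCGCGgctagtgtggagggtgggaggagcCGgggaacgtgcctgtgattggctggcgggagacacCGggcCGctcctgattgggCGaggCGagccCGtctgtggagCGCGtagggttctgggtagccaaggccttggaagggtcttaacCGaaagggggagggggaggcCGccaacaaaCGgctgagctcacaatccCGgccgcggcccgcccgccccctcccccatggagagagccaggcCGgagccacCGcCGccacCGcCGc
Ajap1, chr4:153482781-153483080, minus strand: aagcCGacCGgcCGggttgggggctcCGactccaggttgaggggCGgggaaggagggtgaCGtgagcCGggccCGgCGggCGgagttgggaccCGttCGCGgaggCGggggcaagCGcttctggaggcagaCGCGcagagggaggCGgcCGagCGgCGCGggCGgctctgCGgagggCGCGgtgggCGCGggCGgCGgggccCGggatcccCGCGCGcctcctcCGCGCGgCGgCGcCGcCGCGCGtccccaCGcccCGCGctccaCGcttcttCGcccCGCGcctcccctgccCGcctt
Enah, chr1:182019931-182020230, minus strand: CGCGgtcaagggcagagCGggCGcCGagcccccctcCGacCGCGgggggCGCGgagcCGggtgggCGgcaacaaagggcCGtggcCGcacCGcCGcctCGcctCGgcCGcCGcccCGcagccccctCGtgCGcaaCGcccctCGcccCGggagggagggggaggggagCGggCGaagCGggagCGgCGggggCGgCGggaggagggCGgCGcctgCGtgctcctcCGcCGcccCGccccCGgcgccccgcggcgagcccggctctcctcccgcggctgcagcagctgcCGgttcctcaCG
Cebpb, chr2:167688665-167688964, plus strand: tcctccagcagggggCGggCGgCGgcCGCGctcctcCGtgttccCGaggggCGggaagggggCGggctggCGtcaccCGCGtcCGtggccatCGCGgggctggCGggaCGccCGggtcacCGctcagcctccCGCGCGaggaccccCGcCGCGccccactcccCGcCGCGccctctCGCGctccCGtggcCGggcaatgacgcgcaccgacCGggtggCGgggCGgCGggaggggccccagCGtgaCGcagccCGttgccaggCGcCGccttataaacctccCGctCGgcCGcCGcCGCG
Vapa, chr17:65613506-65613805, minus strand: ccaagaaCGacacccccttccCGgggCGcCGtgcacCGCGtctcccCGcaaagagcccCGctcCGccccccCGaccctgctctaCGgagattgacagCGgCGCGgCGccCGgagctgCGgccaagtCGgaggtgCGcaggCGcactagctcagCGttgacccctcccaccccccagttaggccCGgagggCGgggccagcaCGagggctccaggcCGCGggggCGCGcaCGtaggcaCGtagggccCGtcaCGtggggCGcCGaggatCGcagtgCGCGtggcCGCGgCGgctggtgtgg
The promoter of 4933428G20Rik averaged 97.8% ± 1.4997 (SD over 27 libraries), that of Sox30, a transcription factor of male germ cells, 93.0% ± 1.85, and that of Ajap1, which encodes a cell junction protein, 88.6% ± 2.53. The promoter of Enah, an actin regulator, averaged 1.01% ± 0.914, that of Cebpb, a transcription factor of adipocytes and myeloid cells, 0.909% ± 0.599, and that of Vapa, an anchor protein of the endoplasmic reticulum, 1.62% ± 0.972. The G and C content was 74.7%, 70.0% and 80.7% in the 3 high promoters, in the order shown, and 83.3%, 80.7% and 75.3% in the 3 low ones. The 2 groups thus overlapped only through Ajap1. The Ajap1 sequence holds 51 CpGs and is 80.7% G and C, and the Cebpb sequence holds 50 CpGs and is also 80.7% G and C. Sox30 had the fewest CpGs of the 6, with 28.

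The 934 promoters inside long runs had a median of 37 CpGs in 300 bases, against 7 CpGs over all 32851 promoters of the RefSeq table. Their median observed to expected CpG ratio was 0.950, against 0.384 over the whole table. The motif CCGG, which reads the same on both strands and is the site cut by MspI, the enzyme usual in this method, occurred in all 934, and in 52.8% of all promoters. These contrasts are favoured by the choice of promoters. The rule asks for many closely spaced measured positions, and the method measures fragments released at cut sites. Grouped by level, 828 of the 934 were under 10%, with a median of 37 CpGs, and 94 lay between 10% and 50%, also with a median of 37 CpGs. The 12 promoters at 50% or more had a median of 45 CpGs and an observed to expected ratio of 1.00. Promoters of high level inside long runs were thus no less dense in CpG than those of low level.

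Most long runs were close to unmethylated. Their median level was 2.57%, with quartiles of 1.93% and 5.76%, and the range ran from 0.792% to 97.4%. Of the 1723 runs, 1404 (81.5%) were under 10%, 273 (15.8%) lay between 10% and 50%, and 46 (2.67%) were at 50% or more. The lowest class, under 2%, held 492 runs and the class from 2% to 5% held 768. At the other end 38 runs lay between 50% and 75%, and 8 were at 75% or more. No position reached 50% in 1530 runs (88.8%), and every position was under 10% in 863 runs. In 8 runs every position was at 50% or more.

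The 21199 autosomal runs of under 100 positions had a median level of 6.13% and an upper quartile of 28.4%, and 15.4% of them were at 50% or more. Averaged per library, long runs had a mean level of 7.70% ± 0.244 and shorter runs 20.1% ± 0.363 (SD over 27 libraries). The difference was -12.4 points ± 0.155, and long runs were lower in 27 of 27 libraries. The contrast with runs of 50 to 99 positions was much smaller, at -0.741 points ± 0.0694, again with long runs lower in 27 of 27 libraries. The median level was therefore graded over run size. It was 2.57% at 100 or more positions, 2.85% at 50 to 99, 3.79% at 20 to 49 and 15.6% under 20. Within long runs the mean did not fall further, at 8.67% in the 458 runs of 150 or more positions against 7.70% in all long runs. At the threshold itself, the 44 runs of 100 positions had a median of 2.69% and 32 were under 10%, and the 54 runs of 99 positions had a median of 2.56% and 46 were under 10%, so the grading was not seen there. Of these, Vash2, Xpot and Tsen54 with 100 positions each had levels of 2.24%, 1.76% and 1.92%. Orc2, Rassf5 and Cnksr3 with 99 positions each had levels of 3.19%, 2.72% and 2.12%. The 18 runs of 100 or more positions on the X chromosome, which the rule leaves out, had a median of 39.4% and none was under 10%.

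**Figure D1:**
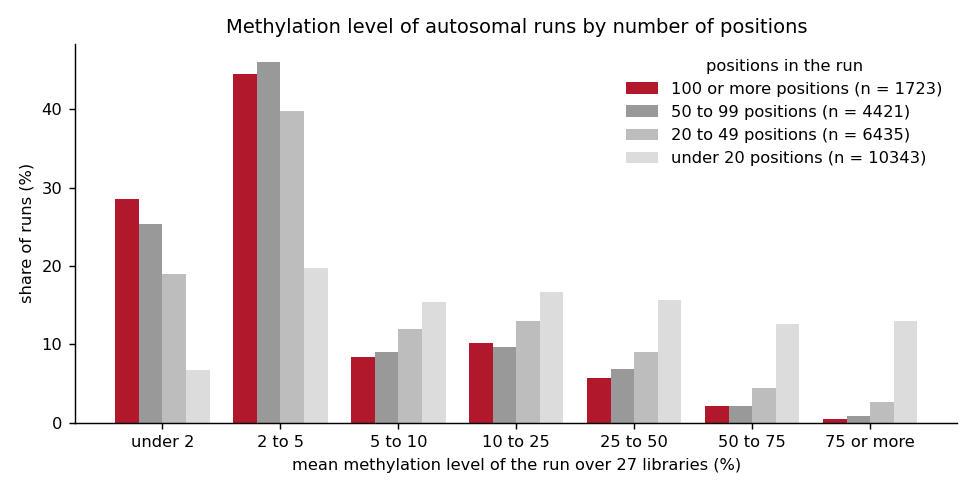
Share of autosomal runs (%, vertical axis) in each class of mean methylation level over 27 libraries (%, horizontal axis), for long runs (red) and for 3 classes of shorter runs (grey). Long runs fall mostly under 5%, with 492 under 2% and 768 from 2% to 5%, while runs of under 20 positions spread over all classes.

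Nearly all long runs were at genes. A gene start of the promoter table lay in 1126 (65.4%), an end of a gene whose strand is not given in the tables used here in 231, and 354 were inside a gene away from both; 12 were within 5000 bp of a gene. Exons, introns and UTRs were not annotated here. Of the runs with a gene start, 15.4% were at 10% or more, against 28.2% of those inside a gene. Gene starts on both strands occurred in 212 runs, of which 9.43% were at 10% or more, against 16.7% of the 914 runs with starts on 1 strand. Long runs were denser in CpG than shorter ones, with a median of 9.81 per 100 bp against 7.13 per 100 bp. The rule itself favours this, since it asks for many closely spaced positions. Among long runs, the Spearman correlation of level with CpG density was -0.26, and with the number of positions 0.00, across 1723 runs that share the same libraries. Density did not fall steadily with level. Its median was 10.8 per 100 bp under 2%, 9.19 from 10% to 25%, 10.2 from 50% to 75% and 11.1 in the 8 runs at 75% or more.

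The largest runs show both patterns. The run with the most positions, 448, lay at Chd7, which encodes a chromatin remodeller (chr4:8690031-8692171), and averaged 2.07% ± 0.763 (SD, n = 27), with a lowest library of 0.902%, a median of 1.87% and a highest of 3.90%. No position of it exceeded 7.62%. Phf21b, Zswim6 and Mn1, a transcriptional coactivator gene, followed with 351, 331 and 312 positions and levels of 6.40%, 2.18% and 18.1%. The run at Fignl2, a gene related to the microtubule-severing fidgetin (chr15:101052765-101054430), had 307 positions and averaged 92.7% ± 0.940. Its lowest, median and highest libraries were at 90.2%, 92.7% and 94.7%. The ranges over libraries of Fignl2 and Chd7, runs of like CpG density (11.9 and 13.2 per 100 bp), lay far apart. Among the 15 runs with the most positions, Fignl2 was the only one at 50% or more, and 11 were under 10%.

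The 46 methylated runs were distributed over 25 gene starts, 16 sites inside genes and 5 gene ends without a known strand. The highest was at the start of 4933428G20Rik inside Arhgap23, a gene for a GTPase-activating protein (chr11:97500142-97500918), at 97.4% ± 1.04, and every one of its 129 positions averaged at least 94.2%. The run inside the overlapping annotation of Hoxa3 and Hoxa5, body-plan genes of the Hoxa cluster (chr6:52203847-52204320), was next at 96.0% ± 1.57. Sox30, whose promoter is shown above, had 88.8% ± 1.37 over 165 positions. Its lowest position averaged 79.9% and its highest 96.5%, so no part of this run was unmethylated.

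Several methylated runs were at genes known for use in germ cells. Dazl, an RNA-binding protein of germ cells (chr17:50292742-50293621), averaged 73.9% ± 4.31, with a lowest library of 61.5%, a median of 74.2% and a highest of 79.6%. Its level changed along the run: with the run divided by coordinate into 5 parts of equal length, the first part had 41.2% ± 7.54 and the last 93.5% ± 2.42. Rbmxl2, expressed in testis, averaged 83.9% ± 2.91, and Rbm46, an RNA-binding protein of meiotic cells, 77.4% ± 2.70. Every position of both was at 50% or more. Of 45 autosomal germ-line genes in the list used, Dazl alone had a long run, while the list's 48 shorter runs had a median of 73.4%.

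Signalling and cell-surface genes formed another part of the 46. Bmp2, a bone morphogenetic protein ligand (chr2:133552014-133553562), averaged 60.4% ± 2.06 over 225 positions, and Bmp8b, a ligand of the same family, 66.2% ± 1.79. Fzd10, a Wnt receptor (chr5:128599978-128601925), averaged 61.4% ± 1.81. Cdh4, a cadherin, averaged 74.7% ± 1.98, Pcdh8, a protocadherin, 61.4% ± 2.79, and Sdk1, an adhesion protein of synapses, 71.0% ± 3.68. Neural genes included Gabra5, a GABA receptor subunit, at 70.6% ± 2.66, and Nptx2, a secreted pentraxin of synapses, at 69.9% ± 3.08. Epithelial genes included Dsp, the desmosome protein desmoplakin, at 60.8% ± 2.75, and Grhl2, a transcription factor of epithelia, at 59.6% ± 2.98. These groups were formed after the genes were seen and carry no count of their own.

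**Figure D2:**
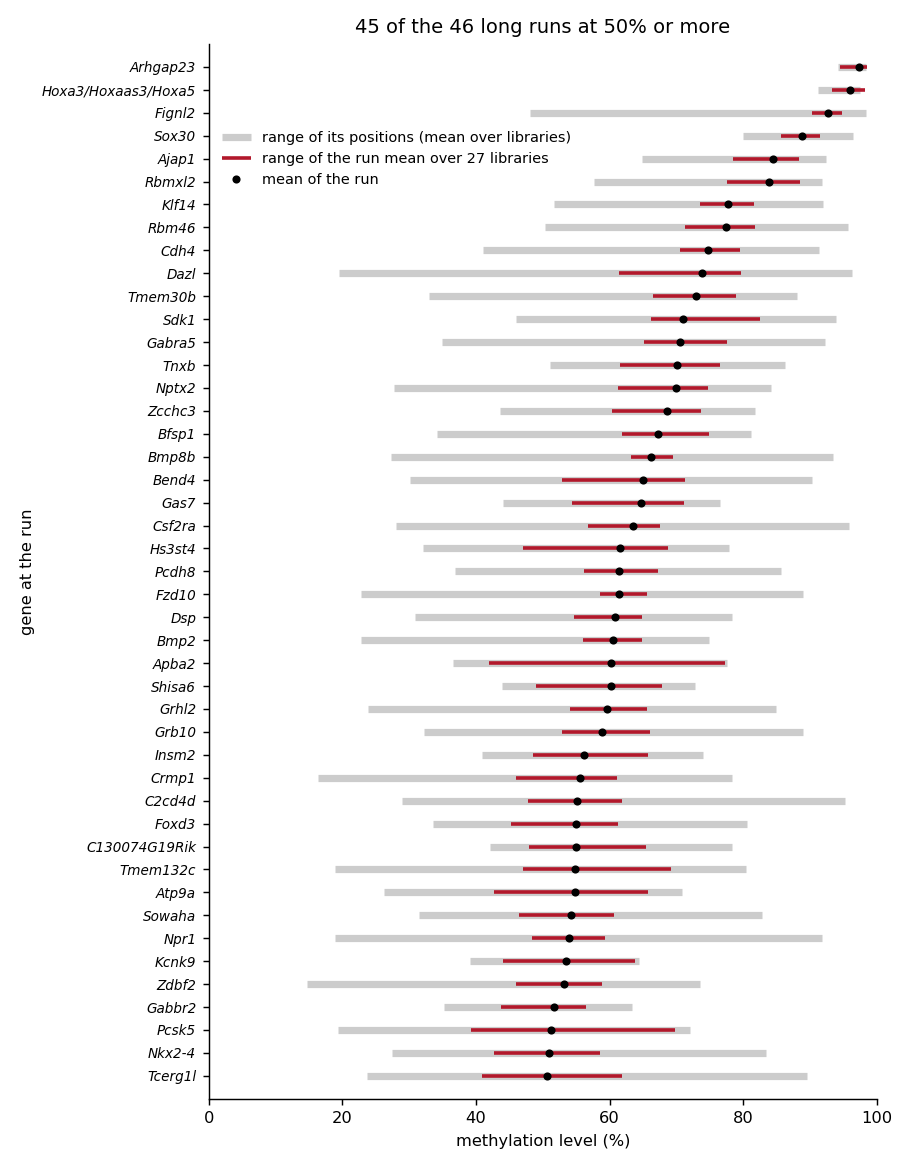
Methylation level (%, horizontal axis) of 45 of the 46 long runs at 50% or more, one per line, named by the gene at the run. Points are means over 27 libraries, red bars the range of the run's mean over libraries and grey bars the range of its positions; the run inside Arhgap23 spans 94.2% to 98.3% over its positions, and that at Dazl 19.5% to 96.2%.

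All 3 imprinted genes with a long run were near the middle of the scale. They stand for 3 of 46 autosomal imprinted genes in the list used, whose 54 shorter runs had a median of 44.0%. Whether these long runs are methylated on a single parental copy was not tested. Grb10, a growth factor receptor adaptor (chr11:12037052-12037996), averaged 58.9% ± 3.25, Kcnk9, a potassium channel (chr15:72546493-72547153), 53.5% ± 4.63, and Zdbf2, a zinc finger gene (chr1:63272964-63273786), 53.2% ± 3.32. Kcnk9 stayed between 44.2% and 59.9% in all 5 parts of its run. Zdbf2 had 25.01% ± 6.75 in the first part and 61.5% ± 7.32 in the third, and Grb10 had 41.2% ± 5.40 in the third and 72.6% ± 4.41 in the fourth. An intermediate level did not always mean intermediate positions: of 42 long runs between 40% and 60%, 11 had every position between 25% and 75%. In bulk DNA a share of cells and a share of alleles within a cell cannot be told apart.

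In 31 long runs a position under 10% and a position at 75% or more lay in the same run. Parp12, an interferon-induced poly-ADP-ribose polymerase gene (chr6:39118184-39119091), had 3.61% ± 3.59 in the first part of its run by coordinate, 13.02% ± 4.38 in the second, 61.4% ± 6.02 in the third, 89.0% ± 2.62 in the fourth and 95.5% ± 1.67 in the last. Sp8, a developmental zinc finger factor (chr12:118848131-118849982), had 6.85% ± 6.11 in the first part and 86.1% ± 3.56 in the last. Egr3, an immediate-early zinc finger factor (chr14:70077969-70080078), had 3.40% ± 1.13 in the first part and 92.6% ± 2.52 in the last. The levels of these 3 runs thus passed from near the bottom to near the top of the scale within about 1 to 2 kb, and their mean levels of 40.3%, 41.4% and 43.3% describe neither end. The run shared by Dpm1 and Mocs3, a mannose transferase subunit and a sulfur carrier enzyme, had 1.33% ± 1.04 in the second part and 93.2% ± 2.04 in the last. Npr1, the receptor for atrial natriuretic peptide, ran the other way by coordinate, with 83.7% ± 3.21 in the first part and 22.5% ± 5.85 in the last. Gata6, an endoderm and heart factor, was different: no part of its run was under 40.7% or over 56.9%.

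Around gene starts the level dipped in runs of each class. In 752 runs under 10% with starts on a single strand, positions 0 to 99 bp after the start averaged 2.28% ± 0.199, those from -600 to -501 bp, upstream of it, 4.39% ± 0.365, and those 900 to 999 bp after it 4.72% ± 0.497. In 125 runs between 10% and 50%, positions in the 100 bp before the start averaged 18.6% ± 0.816, against 28.5% ± 1.55 at -400 to -301 bp. In 24 runs at 50% or more, the 100 bp before the start averaged 60.0% ± 1.67 and the 100 bp after it 69.1% ± 1.91. The distances further out rest on fewer runs, 162 of the 752 at -600 to -501 bp. In runs under 10%, positions within 24 bp of an end of the run averaged 4.67% ± 0.322 and those 200 to 299 bp inside 2.63% ± 0.214. In runs at 50% or more, the same positions averaged 64.4% ± 1.69 and 65.2% ± 0.991, so their ends were not higher.

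**Figure D3:**
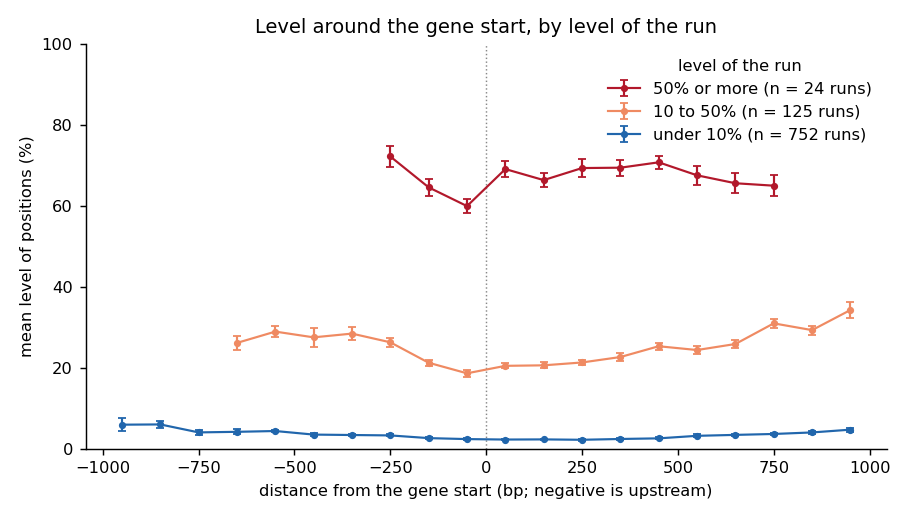
Mean methylation level of positions (%, vertical axis) in 100 bp steps of distance from the gene start (bp, horizontal axis; negative is upstream), for long runs at 50% or more, from 10% to 50% and under 10%. Points are means over 27 libraries with their SD, shown where at least 10 runs have positions; runs under 10% reach their lowest values, 2.22% to 2.42%, between 100 bp before and 400 bp after the start.

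Developmental regulators had higher levels than other long runs. Long runs at Hox, other homeobox and other developmental transcription factor genes numbered 83, with a median of 18.6%, and 53 of them (63.9%) were at 10% or more. The other 1640 long runs had a median of 2.50% and 16.2% of them were at 10% or more. No test was made of this difference, since the lists were chosen with earlier results of these data known. Shorter runs of the lists had medians of 10.6% (Hox), 21.2% (other homeobox) and 21.5% (other developmental factors). Raised levels at these genes were thus not particular to long runs. In the Hox clusters, 5 long runs lay at 6 genes. Apart from the run at Hoxa3 and Hoxa5, they were Hoxd1 at 48.8%, Hoxd8 at 29.7%, Hoxd9 at 29.5% and Hoxb9 at 9.78%. Of 37 runs at other homeobox genes, 2 were at 50% or more, among them Nkx2-4 at 50.9% ± 3.78, and 16 were under 10%. Among these 16 were Pou2f1, a widely expressed POU factor, at 1.80%, and Msx1, an inhibitor of myoblast differentiation, at 2.84%. Of 41 runs at other developmental factors, Foxd3, a neural crest and stem cell factor, was highest at 55.0% ± 4.13, and Foxc1, a mesoderm factor, lowest at 1.64% with a second run at 2.09%.

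Signalling and guidance genes had 24 long runs with a median of 11.6%, from 1.47% at Wnt9a, a Wnt ligand, to 61.4% at Fzd10. Here 12 runs were under 10%, 10 lay between 10% and 50%, and 2 were at 50% or more. Aldh1a2, the enzyme that makes retinoic acid in the embryo, was just below, at 48.0% ± 3.08. The list's 208 shorter runs had a median of 11.8%.

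Long runs at genes for the clock, for myogenic regulation and for functions found in most cells had low levels, close to those of long runs at large, whose median was 2.57%. The 5 long runs at core clock genes had a median of 2.08%, with Clock at 2.08%, Cry1 at 4.19%, Bhlhe41 at 2.33% and Nfil3 at 1.86% among them. Myogenic regulators had 3, Mef2d at 1.901%, Hdac5 at 1.92% and Tcf12 at 1.51%, and the muscle structure list had Des, the intermediate filament desmin, at 8.38%, above the upper quartile of all long runs. These runs stand for few genes of their lists: 5 of 25 clock genes, 3 of 33 myogenic regulators and 1 of 39 autosomal muscle structure genes. The shorter runs of these 3 lists had medians of 4.44%, 7.70% and 23.1%. All 5 runs at genes for DNA methylation enzymes and readers were under 2.20%, with Dnmt3a, a de novo methyltransferase, at 1.94%. The 6 Polycomb and trithorax runs had a median of 2.30%, with Phc1 at 1.42% and Suz12 at 2.09%, and the 5 housekeeping runs a median of 2.21%, with Ywhaz at 1.41% and Actb at 2.19%. Of the list of neural, fibroblast, adipocyte and immune markers, Cebpb had 1.87% and Olig2, a neural factor that also stands in the developmental list, 16.4%. The single run of the multicopy list had 2.11%. It overlapped the annotation of Sfi1 but held the starts of Eif4enif1 and Gm51877, so its level is not that of a Sfi1 start. Reads of Sfi1 copies may have been split or dropped, so this value is uncertain. Pcdh7, a protocadherin, had 4.91%, and Pcdh8 61.4%. Methylation levels do not show which genes were expressed.

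**Figure D4:**
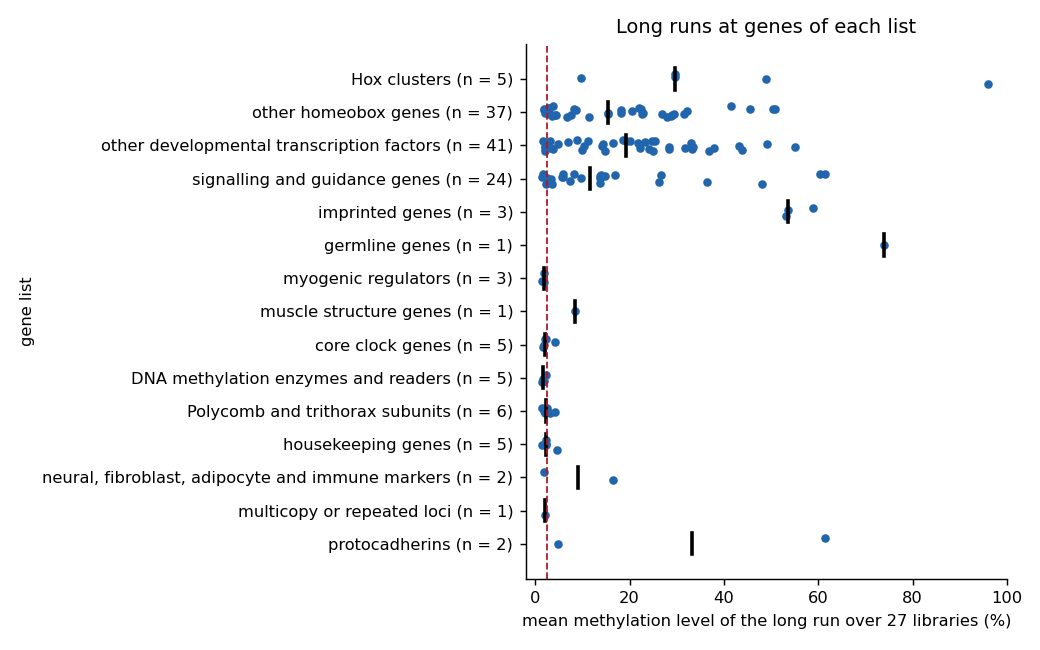
Mean methylation level over 27 libraries (%, horizontal axis) of each long run at a gene of 15 lists (1 list per line); black bars are list medians and the dashed line the median of all long runs, 2.57%. Developmental lists spread up to 55.0% and, for Hoxa3 and Hoxa5, 96.0%, while the clock, DNA methylation, Polycomb and housekeeping lists stay under 5%.

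In 21 genes more than 1 long run was found, and in 3 of them the runs differed by 10 points or more. Tmem200b, a transmembrane protein gene, had runs at 9.13% (chr4:131920766-131921591) and 46.9% (chr4:131921717-131922618). Tlx3, a homeobox factor of neurons, had 18.1% and 41.6%, and Inhbb, the inhibin beta B subunit, 2.31% and 13.8%. Neighbouring runs of the other 18 genes differed by at most 7.77 points. Of these genes, Tcte2 and Afdn share the same 2 runs, so the genes are not all separate sets of runs.

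Levels of most long runs differed little between libraries, but in 241 runs the highest and lowest libraries were over 10 points apart. Over the 351 pairs of libraries the Pearson correlation across long runs lay between 0.969 and 0.992. Its mean was 0.983 both for pairs of the same time point and for pairs of different time points. Runs are not independent replicates, and their wide range of levels, from 0.792% to 97.4%, keeps such a correlation high. The mean level over all long runs was between 7.42% (54 h replicate 1) and 8.36% (48 h replicate 3). Between 4.65% (24 h replicate 3) and 25.7% (12 h replicate 3) of the positions in long runs had a level of 0; the part of read depth in this was not tested. The number of long runs at 50% or more per library was 40 to 52. Of all 1723 runs, 1490 stayed in the same class (under 10%, 10% to 50%, or 50% and more) in all 27 libraries. These were 1272 of the 1404 low runs, 191 of the 273 between 10% and 50%, and 27 of the 46 methylated ones. The methylated runs averaged 64.8% ± 0.894 at 12 h, 65.2% ± 0.357 at 18 h, 65.5% ± 0.997 at 24 h, 64.8% ± 0.507 at 30 h, 65.1% ± 0.917 at 36 h, 65.1% ± 1.10 at 42 h, 65.3% ± 0.735 at 48 h, 65.4% ± 0.576 at 54 h and 65.3% ± 0.742 at 60 h (SD, n = 3 each). The highest and the lowest of these means differed by less than the SD of the 12 h libraries.

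The spread over libraries was smallest at low levels. The SD of a long run over 27 libraries had a median of 1.15 points and lay between 0.418 and 6.56 points, while shorter autosomal runs had a median SD of 3.29 points. At the same level the SD was also lower in long runs: between 50% and 75% its median was 3.34 points in long runs, 4.35 points in runs of 50 to 99 positions and 7.45 points in runs of 5 to 19 positions. Runs of more positions average over more values. The largest SD, 6.56 points, was that of Pcsk5, a proprotein convertase, whose libraries ran from 39.3% through a median of 51.0% to 69.9%. Apba2, a neuronal adaptor, followed with 42.0% to 77.3%. The smallest SD, 0.418 points, was that of Pgp, a phosphatase of glycolytic metabolism, with 1.60% to 3.13%.

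Changes with time were tested on the mean level of every run with limma, with Benjamini-Hochberg adjustment over all 23602 runs. For a 24 h rhythm, 0 runs passed an adjusted p of 0.05 (0% of all runs). At an unadjusted p under 0.05 there were 40 of 1723 long runs (2.32%), against 4.33% of all runs. For any difference between time points, 1 run of all 23602 passed (0.00424%) and 0 long runs did, with 21 long runs (1.22%) at an unadjusted p under 0.05 against 4.25% of all runs. For a linear trend 0 runs passed (0%), with 62 long runs (3.60%) at an unadjusted p under 0.05 against 4.97% of all runs. For 60 h against 12 h 0 runs passed (0%), with 57 long runs (3.31%) at an unadjusted p under 0.05 against 5.39% of all runs. The long runs' shares were below those of all runs in each of the 4 tests. However, limma draws the spread of each run towards a value shared by all 23602 runs. Long runs had smaller SDs (median 1.15 points, against 3.29 in shorter autosomal runs), so their standard errors tend to be raised and their intervals widened. The lower shares are therefore no measure of greater stability.

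The intervals bound the size of change, more tightly for the rhythm than for 60 h against 12 h. The fitted 24 h amplitude had a median of 0.394 points and a highest value of 4.56 points, at Pcsk5. Its upper 95% limit was under 2 points in 77.1% and under 5 points in 98.2% of long runs. The difference at 60 h from 12 h had a median of -0.09 points and ran from -5.77 to 8.93 points, and its 95% interval lay within 5 points of 0 in 82.8% of long runs but within 2 points in 12.5%. For runs between 10% and 90%, the amplitude's limit was under 2 points in 12.3% and under 5 points in 90.8%, and the interval of the difference lay within 5 points in 27.2%. Changes of a few points between 60 h and 12 h could not be resolved in most long runs.

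The long run with the lowest p for any time difference was at Hpca, which encodes the neuronal calcium sensor hippocalcin (chr4:129120925-129121779), with an adjusted p of 0.182 by limma. Its level was 18.3%, 18.6% and 18.5% at 12 h, 14.9%, 14.1% and 17.2% at 30 h, 20.8%, 23.2% and 20.3% at 54 h and 22.3%, 19.9% and 20.9% at 60 h. The 30 h libraries were the lowest of these and did not overlap with those of 12 h, 54 h and 60 h. The run was picked for its low p and only some of the 9 times are shown, so this lack of overlap is no further support for a change. The largest difference between 60 h and 12 h was at Nkd1, an inhibitor of Wnt signalling (chr8:88521231-88522014), with 39.2%, 37.6% and 36.5% at 60 h and 27.4%, 32.1% and 27.02% at 12 h. The difference was 8.93 points ± 2.53 (SE), with an adjusted p of 0.787 by limma. Kctd12, a GABA receptor subunit gene, had the lowest p for a trend, 4.49 points per 48 h ± 1.21 (SE, adjusted p = 0.975 by limma). Clock, the core clock transcription factor, had a slope of -2.32 points per 48 h ± 0.755 (SE, adjusted p = 0.975 by limma). Its level was 1.897%, 0.581% and 1.07% at 60 h, against 1.14%, 5.45% and 2.56% at 12 h, and the libraries of these times overlapped. Lemd2, a nuclear envelope protein gene, had the lowest p for a rhythm, with an amplitude of 1.96 points ± 0.520 (SE, adjusted p = 0.981 by limma).

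**Figure D5:**
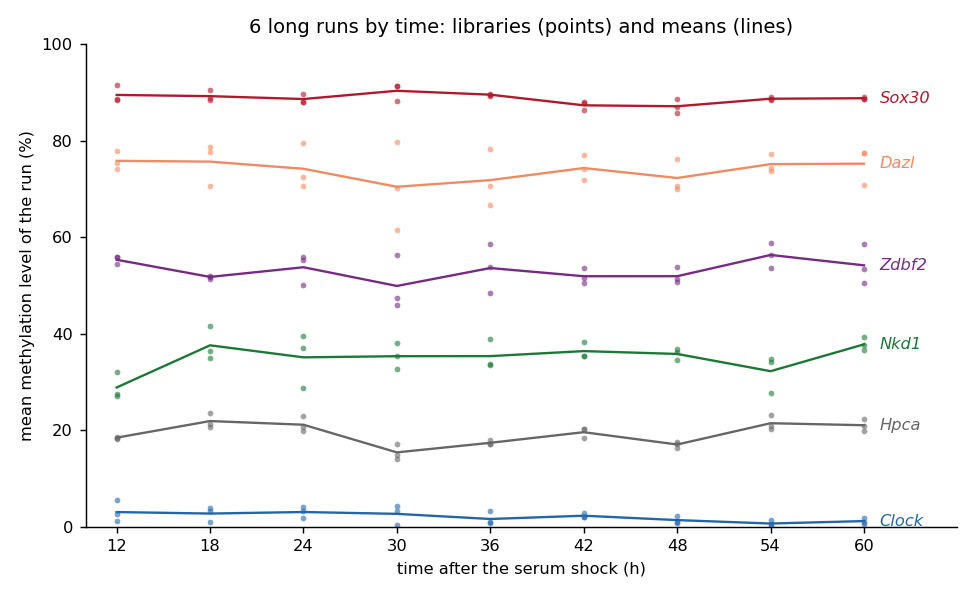
Mean methylation level (%, vertical axis) of 6 long runs against time after the serum shock (h, horizontal axis). Points are single libraries, 3 per time, and lines are means; Sox30 stays near 88.8%, Dazl near 73.9%, Zdbf2 near 53.2% and Clock near 2.08%, and the mean at 30 h is the lowest of the 9 at Hpca.

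At single positions, short patches inside 4 long runs differed between 60 h and 12 h. Over the whole series, 61 of 871894 positions passed (0.007%), of which 17 lay in long runs, 0.00723% of their positions (limma on percentage points, Benjamini-Hochberg adjustment over all positions). For any time difference 36 positions passed (0.00413%), of which 9 lay in long runs (0.00383%). In both tests the share in long runs was near that of the whole series. Neighbouring positions of a patch had like values that changed gradually along it, and they do not count as separate events. Whether the deposited levels draw on neighbouring positions was not tested.

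The patch at Abtb1, a gene for an ankyrin and BTB domain protein, held 8 positions in 24 bp at the end of its run (chr6:88842739-88842762). Their mean was 14.3%, 8.35% and 13.8% at 60 h, against 0%, 4.04% and 0% at 12 h, and the other 21 libraries ran from 0% to 5.19%. The 60 h libraries were above all others. The 8 adjusted p-values by limma lay between 0.00753 and 0.0429. Along these positions the level of 60 h replicate 1 rose in steps from 10.8% to 17.2%. The patch at Gspt1, a translation termination factor (chr16:11254171-11254189), held 6 positions with a mean of 0.556%, 0.3998% and 0.331% at 60 h, against 14.95%, 7.49% and 12.9% at 12 h, and 0% to 5.14% in the other libraries. Here the 12 h libraries stood above all others, and the adjusted p-values by limma lay between 0.0117 and 0.0187. At Npnt, the extracellular matrix protein nephronectin (chr3:132950142-132950143), 2 adjacent positions averaged 17.3%, 15.4% and 11.4% at 60 h, against 3.03%, 4.16% and 0% at 12 h (adjusted p-values of 0.0286 and 0.0340 by limma). At Ranbp2, a nuclear pore protein, a single position (chr10:58446507), the first of its run, had 31.3%, 12.6% and 27.6% at 60 h, against 0%, 2.13% and 0% at 12 h (adjusted p = 0.0380 by limma). In both, the groups of 60 h and 12 h did not overlap. The positions of all these patches were picked for their low p between these times. Their separation is therefore no further support for a change. The other libraries ran from 0% to 7.55% at Npnt, below all 60 h libraries, and from 0% to 13.6% at Ranbp2, where the highest was above 60 h replicate 2. With each library left out in turn, the position at Ranbp2 passed in 8 of 27 fits and the Npnt positions in 13 and 23, while the 6 at Gspt1 and 7 of the 8 at Abtb1 passed in all 27.

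The means of these 4 runs moved far less than the patches. The difference at 60 h from 12 h of the whole run was 3.55 points ± 1.64 at Abtb1, -0.61 points ± 0.920 at Gspt1, 0.84 points ± 0.860 at Npnt and 0.59 points ± 1.03 at Ranbp2 (SE), with adjusted p-values by limma of 0.906 or more. On the M-value scale, the logit of the level, 0 of the 17 positions passed, and the lowest adjusted p was 0.234 by limma. The count of 17 was also unstable when single libraries were left out. It rose to 147, 99 and 135 without 12 h replicate 1, 2 or 3, and to 69 and 36 without 60 h replicate 2 or 3. The lowest count without 1 library was 13.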

How the data were processed

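The authors deposited a matrix of methylation levels as a fraction from 0 to 1, with 1 row per position and 1 column per library, per the file headers and the values. It holds no coverage, so no interval from counts is given. Per the submitters' processing notes, the tools were Bismark 0.14.4 and Bowtie2, with cutadapt 1.9.1 and Trim Galore 0.4.0, on build mm10. Their settings are not stated in the sources used. Of 937644 positions, the 871894 (93.0%) with values in all 27 libraries were kept and turned into percent. Where promoter sequence could be read, 99.98% of positions lay on a CpG counting from 1. A CpG measured on both strands gives a pair of positions 1 bp apart, and 32.8% of long-run positions are the second of such a pair.

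Run means were tested with limma 3.58.1 (R 4.3.3, with version 1.17.8 of its data.table library) over all runs, with the time point, a 24 h cosine and sine, or linear time as terms, and p-values adjusted by the Benjamini-Hochberg method; the same fits were run on positions. The procedure was tested on simulated data. Summaries used Python 3.11.15, numpy 2.4.6 and pandas 2.3.3, with matplotlib 3.10.9 for figures. Genes came from RefSeq (GRCm38.p6), with promoters for part of the genes.

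The members and gene lists were chosen with earlier results of these data known. The text names runs by a rule: runs at 50% or more, those with the most positions overall and between 10% and 50%, the lowest p-values per test, the largest and smallest SD, shares of positions at 50% or more nearest to 0.5, the ends of each list, and runs at the size threshold; others were chosen after their values were seen. Alternatives covered the gap, the size threshold, the summary, the scale, the model and left-out libraries. Some runs named by this rule are not reported here.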

Additional observations from a re-analysis of the deposited data

How the results depend on the processing

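The levels of the long runs kept their pattern under other definitions, while their number followed the definition. There were 857 long runs with gaps of at most 50 bp (24 at 50% or more, 719 under 10%), 2884 with 80 or more positions (71 and 2349), 458 with 150 or more positions (18 and 369), and 485 when both strands of a CpG counted once and 100 CpGs were needed (18 and 383). The median level was 1.56% when each run was summarised by its median over positions, and 47 runs were then at 50% or more, the 46 and 1 other. Leaving out 1 library gave 46 runs at 50% or more each time, 1401 to 1405 runs under 10%, and a median level of 2.54% to 2.59%. No named level moved by more than 0.728 points without 1 library. The summary mattered more: in 44 of 135 runs named by the rule, the median over positions differed from the mean by 1 SD over libraries or more.

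The count of long runs that passed was 0 in each of the 4 tests under all alternatives fitted on runs, the replicate block among them, and in 30 fits each without 1 library or 1 replicate number (range 0 to 0). The lowest adjusted p among the leave-outs was 0.127, for any time difference, by limma. With positions as the unit, 9 and 17 positions of long runs passed for any time difference and for 60 h against 12 h. With alternatives chosen after seeing the data, the 9 became 5 with the replicate block, 16 with a mean-variance trend and 0 on the M-value scale, and ran from 5 to 122 without 1 library, moving by over 1.5 times without any library except 24 h replicate 1, 48 h replicate 3 and 60 h replicate 3. The 17 became 0 on the M-value scale and 15 with the block, which lost the position at Ranbp2 (adjusted p = 0.0868 by limma) and 1 at Abtb1, and ran from 13 to 147 without 1 library; the cause was not tested. The replicate numbers were not treated as pairs: the correlation of deviations between libraries of different times averaged 0.00709 for the same number (from -0.0865 to 0.125) and -0.00352 for different numbers. As hints from the data, 13 of 27 libraries were closest to their own number, and replicate 1 had more long-run positions at 0 than replicate 2 at 8 of 9 times. Unknown depth limits all values.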
